A study of Mus musculus with 14 samples.

Results

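The cytosolic ribosomal protein genes are the genes whose proteins, with the ribosomal RNAs, build the ribosomes of the cytoplasm. They were chosen by name. Every probe set whose single gene symbol in the platform annotation was Rpl or Rps followed by a number (with an a or x where present), Rplp0 to Rplp2, or Rpsa was taken, and the kinases named Rps6k were left out. The rule gave 42 genes on 94 probe sets, out of 18193 genes with a probe set of their own, and each gene was represented by its probe set with the highest mean over 14 arrays. Of the 42 genes, 40 passed the filter on dim probe sets (above 4 on the log2 scale on at least 3 of 14 arrays) and were tested, among 10295 genes tested in all. Rps16 and Rps27 did not pass, with means of 2.05 and 1.88, and their probe sets were not above 4 on any array. Another 110 probe sets carried a name of this kind together with other symbols and were set aside. In all, 27 symbols of this kind were measured only on such probe sets and are therefore not among the 42. Rplp1, Rpl3, Rpl5, Rpl10, Rpl17 and Rpl24 are among these. Statements on the family below therefore cover only a part of it.

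The study asked what Fezf2, a transcription factor of deep-layer cortical projection neurons, does to gene expression in neocortical progenitors that make upper-layer neurons at the time of injection. Vector DNA mixed with the dye Fast Green was injected into the lateral ventricle of CD1 mouse embryos at E14.5 and driven into the cells lining it by electric pulses. All groups were treated in this way, and GFP-positive cells were then sorted by FACS into the preservative RNAlater. The arrays form 4 groups, which are CtrlGFP at 24 h (3 arrays, the control vector with GFP), Fezf2GFP at 24 h (3 arrays), CtrlGFP at 48 h (4 arrays) and Fezf2GFP at 48 h (4 arrays). The sources used here give neither the promoter in the vectors nor the number of embryos behind an array. They also do not say whether arrays of 1 group stem from different litters, and p-values therefore rest on a spread between samples that may be technical.

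A ribosome has a small subunit, which reads the messenger RNA, and a large subunit, which joins the amino acids. Genes named Rps encode proteins of the first, genes named Rpl and Rplp proteins of the second, and nearly all of them are present in a single copy per ribosome, so cells keep their amounts in balance. Many ribosomal protein messengers begin with an unbroken run of pyrimidines, the terminal oligopyrimidine tract, through which the mTOR pathway controls their translation rather than their transcription. Dividing progenitors need many new ribosomes.

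The start sites of 37 of the 42 genes were found in RefSeq (GRCm38.p6), and windows of 40 bases, from 25 before the annotated start to 15 after it, are shown for 8 of them. They are the 4 genes that, by the probe set used, lay furthest below their own median on 1 array described below, Fezf2GFP 48 h replicate 1, and the 4 that lay nearest to it there, among genes with 1 annotated start. The choice was made after the values were seen. Letters run 5′ to 3′ on the transcribed strand, and capitals mark the longest run of C and T where it reached 8 bases.
Rpl41, chr10:128549154-128549193, minus strand: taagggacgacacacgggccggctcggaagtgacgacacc
Rps15, chr10:80292406-80292445, plus strand: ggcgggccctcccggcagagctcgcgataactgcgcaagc
Rplp2, chr7:141447626-141447665, plus strand: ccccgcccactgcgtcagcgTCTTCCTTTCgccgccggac
Rpl37, chr15:5116588-5116627, plus strand: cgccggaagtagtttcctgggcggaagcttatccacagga
Rps2, chr17:24720038-24720077, plus strand: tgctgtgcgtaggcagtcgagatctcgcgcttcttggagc
Rpl14, chr9:120571492-120571531, plus strand: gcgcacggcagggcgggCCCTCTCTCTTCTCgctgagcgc
Rpl12, chr2:32961687-32961726, plus strand: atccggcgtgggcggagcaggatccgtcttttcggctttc
Rplp0, chr5:115559442-115559481, plus strand: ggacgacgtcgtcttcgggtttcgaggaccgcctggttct

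Of the 8 windows, those of Rplp2 and Rpl14 held such a run, of 10 and 14 bases. In this window, 18 of the 37 ribosomal protein genes (48.6%) had a run of at least 8 pyrimidines at 1 or more annotated starts, against 18.9% of all 27025 genes in the table. The motif CCGGAAG, read on both strands of the whole 300-base entries (250 bases before and 50 after the start), was found for 18 of the 37 genes (48.6%) and for 9.93% of all genes. Its reverse form, CTTCCGG, can overlap a pyrimidine run. These matches describe letters in a window, and the start sites are those of the annotation, which can lie some bases away from the start that the cells use.

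The targeted gene went against its label. Fezf2 stood at 10.82, 11.54 and 11.54 on the CtrlGFP arrays at 24 h and at 9.31, 9.496 and 9.52 on those labelled Fezf2GFP. The groups were apart, and the fitted difference was -1.86 log2 units (SE 0.38), at an adjusted p = 0.0324 in limma. At 48 h it stood at 10.65, 9.63, 10.44 and 9.87 on the CtrlGFP arrays and at 10.25, 8.67, 8.93 and 9.48 on those labelled Fezf2GFP. There the groups overlapped. The sources used here do not say whether the vector's insert covers its probe set, so directions below are between arrays labelled Fezf2GFP and arrays labelled CtrlGFP. Progenitor markers were present in all 4 groups, with Sox2 between 11.18 and 13.69 and Eomes, of intermediate progenitors, between 13.61 and 14.85. Of the markers of other cells, 11 of 12 of microglia and macrophages and 7 of 8 of meninges were dim on every array. Markers of GABAergic and subpallial neurons were present, with Gad1 above the dim level on all 14 arrays (4.72 to 9.77) and 3 of 11 markers dim on every array. The log2 of their summed level was 7.93 to 8.18 with CtrlGFP and 8.44 to 10.90 with Fezf2GFP at 24 h, and 8.06 to 10.71 and 9.52 to 10.47 at 48 h. Of 8 tested, 0 passed at 24 h or at 48 h, where 1.06% and 3.13% of all genes did, so nothing is read from that count. Their median log2 fold changes were 1.13 and 0.68, with 0 and 1 of the 8 below 0. An unadjusted p under 0.05 (limma) was reached by 4 at 24 h and 1 at 48 h, against 8.85% and 15.2% of all genes. For endothelium and pericytes, 6 of 11 were dim on every array, and the sums were 7.77 to 9.18 and 7.62 to 10.30 at 24 h and 8.29 to 9.53 and 9.01 to 10.23 at 48 h. The part of such cells in the family's levels was not tested. Correlations between arrays of a group over the 10295 genes tested ranged from 0.942 to 0.993.

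No ribosomal protein gene passed the test (limma, Benjamini-Hochberg adjusted p under 0.05 over the 10295 genes) when arrays labelled Fezf2GFP were compared with CtrlGFP arrays. At 24 h, 0 of 40 passed, where 1.06% of all genes did, and at 48 h 0 of 40 passed, where 3.13% of all genes did. At an unadjusted p under 0.05, 0 genes were reached at 24 h and 1 at 48 h, Rps25. The median log2 fold change of the 40 genes was -0.10 at 24 h and -0.16 at 48 h, beside 0.056 and 0.063 over all genes. Below 0 lay 33 of 40 genes at 24 h and 34 of 40 at 48 h, against 43.6% and 42.7% of all genes. Each of these small negative medians rested on 1 array: without CtrlGFP 24 h replicate 1 the 24 h median was 0.03, and without Fezf2GFP 48 h replicate 1 the 48 h median was -0.01, with 21 genes below 0 and 19 above. In such sorted samples, fewer cells of a type and less RNA per cell cannot be told apart.

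For most of these genes the signal of the probe set used was measured closely enough to bound a change in it. Other probe sets of a gene can lie outside such bounds. At 48 h the interval of Rpl37a was -0.80 to 0.21 by the probe set used, while its others gave -1.45 and -1.29. The 95% confidence interval of the fold change lay within 1 log2 unit of 0, a factor of 2, for 30 of 40 genes at 24 h and for 30 of 40 at 48 h, and within 0.5 log2 units for 17 and 18. Rplp0, the base of the stalk that recruits elongation factors to the large subunit, stood at 15.58, 15.56 and 15.44 on the CtrlGFP arrays at 24 h and at 15.54, 15.45 and 15.50 on the Fezf2GFP arrays. The groups overlapped, and the fold change was -0.03 (SE 0.14, interval -0.34 to 0.27, limma adjusted p = 0.946). Rpl4, which lines the tunnel through which the new protein leaves, stood at 14.88, 14.86, 15.04 and 14.91 with CtrlGFP at 48 h and at 15.15, 15.11, 14.83 and 14.96 with Fezf2GFP. Its fold change was 0.09 (interval -0.17 to 0.35). The groups overlapped there too. Rps2, a small-subunit protein, stood at 14.38, 14.52, 14.48 and 14.47 with CtrlGFP at 48 h and at 14.49, 14.51, 14.49 and 14.45 with Fezf2GFP, and Rpl11 at 14.64, 14.90, 14.83 and 14.67 and at 14.52, 14.84, 14.70 and 14.66. In both genes the values were interleaved.

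A few arrays stood apart for the family as a whole, across both vectors. On CtrlGFP 24 h replicate 1, 31 of the 40 genes had their highest value of the 14 arrays, where 15.8% of all genes did. On Fezf2GFP 48 h replicate 1, 24 of the 40 had their lowest value, where 10.6% of all genes did. As deviations from each gene's median over 14 arrays, the median over the 40 genes was 0.45 on the first of these arrays and -0.43 on the second. It was 0.15 on CtrlGFP 48 h replicate 2, and on the other 11 arrays it lay between -0.11 and 0.08. The heat map of deviations shows these as a red and a blue column that do not follow the groups.

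**Figure D1:**
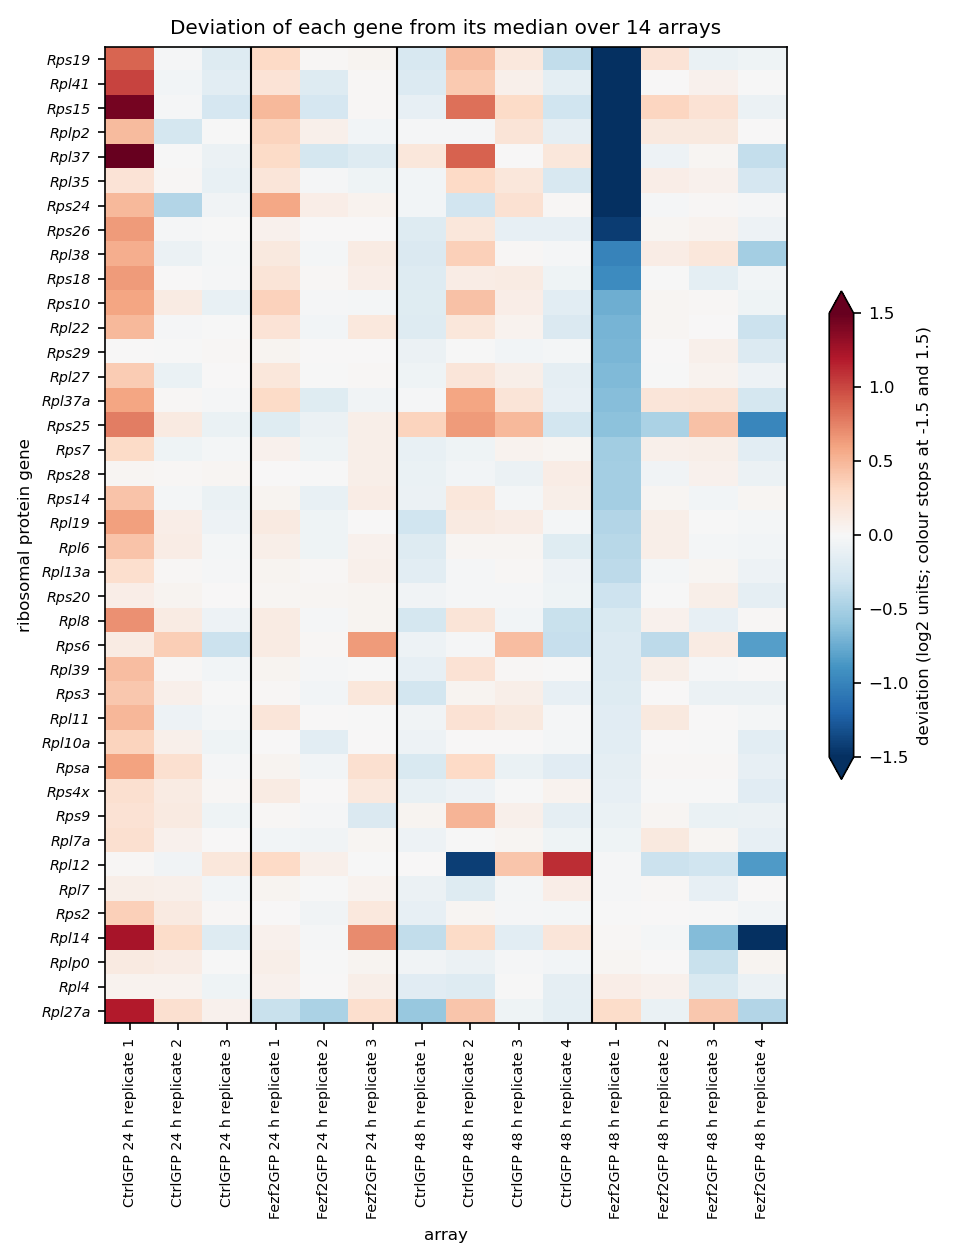
Deviation of each of the 40 tested ribosomal protein genes (rows, ordered by their value on Fezf2GFP 48 h replicate 1) from its median over 14 arrays, in log2 units, on each array (colours stop at 1.5 units either way; columns, with black lines between the 4 groups). CtrlGFP 24 h replicate 1 is red for nearly all rows, and Fezf2GFP 48 h replicate 1 is blue down to the lower rows, from -3.26 for Rps19 to 0.28 for Rpl27a.

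The fall on Fezf2GFP 48 h replicate 1 was not shared evenly. There, 19 of 40 genes lay more than 0.5 below their median and 9 more than 1 below (15.7% and 6.36% of all genes did so). Rps19, a small-subunit protein and the gene most often mutated in Diamond-Blackfan anaemia, stood at 10.54 on this array and at 14.002, 13.70 and 13.73 on the other arrays of its group. Rpl41, the shortest protein of the ribosome, stood at 10.86 against 13.74, 13.80 and 13.72 by the probe set used. Its other 3 probe sets above the dim level were not low there, with deviations of -0.17, -0.04 and -0.05 in place of -2.87, so the low value belongs to 1 of its 4 probe sets. Rps15, of the small subunit's head, stood at 11.52 against 13.90, 13.79 and 13.49. By the probe sets used, each of these genes was more than 1 log2 unit lower on that array than on any of the other 3, which lay close together.

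Rplp2, a stalk protein that sits on Rplp0, stood at 13.02 against 15.22, 15.22 and 15.08. Rpl37, of the large subunit, stood at 9.33 against 11.19, 11.28 and 10.90. Rpl35, which lies at the exit of the tunnel, stood at 14.08 against 15.76, 15.73 and 15.41, the small-subunit protein Rps24 at 12.73 against 14.30, 14.33 and 14.30, and Rps26, another of that subunit, at 13.46 against 14.91, 14.93 and 14.81. In all 5 genes the array was apart from the others of its group. Other members did not share it, since Rplp0 stood 0.03 above its median on the same array, Rpl4 0.10 above, and Rps2, Rpl7, Rpl12 and Rpl14 within about 0.02 of theirs.

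**Figure D2:**
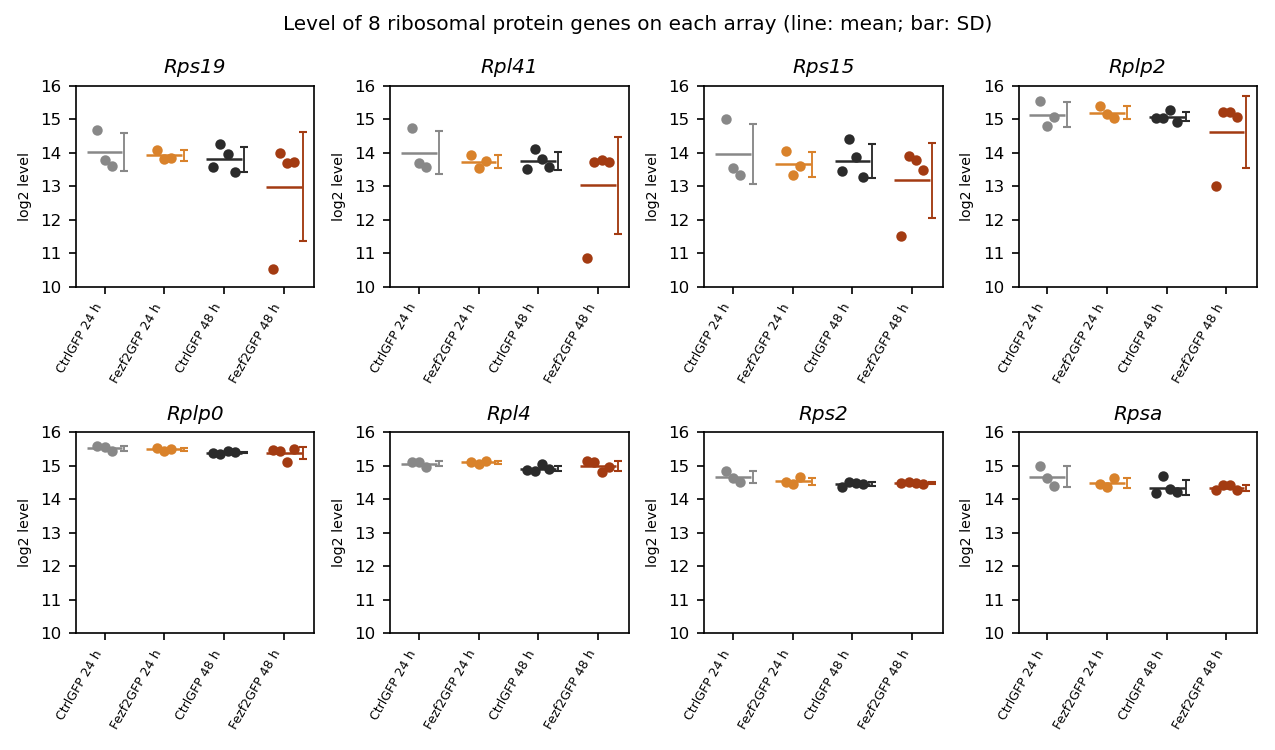
Level (log2 units, axis from 10 to 16) of 8 ribosomal protein genes on each array (points, 3 or 4 a group), with the group mean (line) and SD (bar). In Rps19, Rpl41 (1 of its 4 probe sets), Rps15 and Rplp2, 1 of the 4 Fezf2GFP arrays at 48 h lies far below the rest (10.54, 10.86, 11.52 and 13.02), while Rplp0, Rpl4, Rps2 and Rpsa stay within 0.83 units over all 14 arrays.

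The same array was low on most of the genes' other probe sets, but not on those of every gene. Of 41 further probe sets above the dim level, for 18 of the 40 genes, 37 lay below their own median on Fezf2GFP 48 h replicate 1, with a median deviation of -0.75, and of 102 probe sets with several symbols 89 did, with a median of -0.44. The second probe set of Rps15 had a deviation of -2.63 there, and the other 4 of Rpl35 had between -3.71 and -1.63, while those of Rpl41 lay near 0. Rps19, Rplp2, Rpl37 and Rps26 had no further probe set of their own. Rpl37a gave the widest gap between probe sets. The one used had a deviation of -0.64 on that array, but the other probe sets had -5.499 and -5.02, so that the difference at 48 h was -0.29 by the first and -1.45 and -1.29 by the others. Rps24 (from -0.18 to 0.87 at 24 h over 5 probe sets) and Rpl22 (from -0.06 to 0.76 over 3) had the next widest gaps. Against the probe set used, 15 of the 41 had the opposite sign at 24 h and 3 at 48 h.

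On CtrlGFP 24 h replicate 1, 15 of the 40 genes lay more than 0.5 above their median and 5 more than 1 above, against 18.6% and 8.16% of all genes. The median deviation of all genes on this array was -0.04, but the array stood apart beyond the family. Of all genes, 15.8% had their highest value of the 14 arrays there and 19.9% their lowest. The median of all probe sets was 3.50 there, 3.45 on CtrlGFP 48 h replicate 2 and at most 3.31 on the rest. Rpl37 reached 13.00 against 11.25 and 11.17 on the other arrays of its group, Rps15 15.01 against 13.56 and 13.33, and Rpl14, a large-subunit protein, 12.06 against 11.10 and 10.63. Rpl27a, also of the large subunit, reached 11.33 against 10.38 and 10.21, and Rpl41 14.74 against 13.69 and 13.58. Among the 100 genes with the highest values on an array, 28 belonged to the family on CtrlGFP 24 h replicate 1, 10 on Fezf2GFP 48 h replicate 1, and between 14 and 20 on the other 12 arrays. Across the 40 genes, the deviations on these arrays ran in opposite directions (Pearson's r = -0.47, Spearman's rho = -0.41), and those on CtrlGFP 24 h replicate 1 and CtrlGFP 48 h replicate 2 ran together (r = 0.68, rho = 0.74). Genes are not independent replicates, and the 3 arrays share the median from which each deviation is taken.

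Other groups of genes moved with the family on these arrays. The 76 mitochondrial ribosomal protein genes, which build the separate ribosomes inside mitochondria, had median deviations of 0.69 on CtrlGFP 24 h replicate 1, 0.35 on CtrlGFP 48 h replicate 2 and -0.54 on Fezf2GFP 48 h replicate 1. For 46 of them the first array was the highest of the 14, and for 43 the last was the lowest. Over 1095 other genes that span under 5 kb the medians were 0.18, 0.18 and -0.07. Rpl22l1, a paralog of Rpl22, stood at 9.03 on Fezf2GFP 48 h replicate 1 against 12.19, 12.23 and 11.87 on the rest of its group. Rps27l stood at 10.89 against 12.93, 12.71 and 13.14, and Fau, whose product is cleaved into a ubiquitin-like protein and Rps30, at 11.57 against 14.09, 13.99 and 13.86. These 3 had their lowest value of all arrays there. Rpl7l1 and Rps3a1, 2 other tested genes with a ribosomal protein name that the rule does not match, did not. Rpl7l1 stood at 12.24 there, within the range of its group, and was lowest on CtrlGFP 24 h replicate 1 at 11.98. Rps3a1 stood at 15.17 there and was lowest on CtrlGFP 48 h replicate 2 at 15.14. The embryonic globin gene Hbb-y also marked the first array, at 13.78 on CtrlGFP 24 h replicate 1, 9.96 on Fezf2GFP 24 h replicate 3 and at most 5.78 elsewhere. Hba-x stood at 5.95 on the first array and at most 2.37 elsewhere. The globin genes Hbb-bh1 and Hba-a1 were dim on every array. Of 9 measured red blood cell markers, 3 were dim on every array, namely Alas2 and these globin genes. The log2 of the summed level of the 9 ran from 7.74 to 13.81 with CtrlGFP and 7.62 to 10.22 with Fezf2GFP at 24 h. At 48 h it ran from 7.62 to 7.89 with CtrlGFP and 7.55 to 8.10 with Fezf2GFP. The part of red blood cells, or of transcript length, in the family's levels was not tested. With the trend over gene span removed from each array, the family's median was -0.02 at 24 h and -0.10 at 48 h. Below 0 then lay 23 and 26 of 40 genes, and 0 passed.

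**Figure D3:**
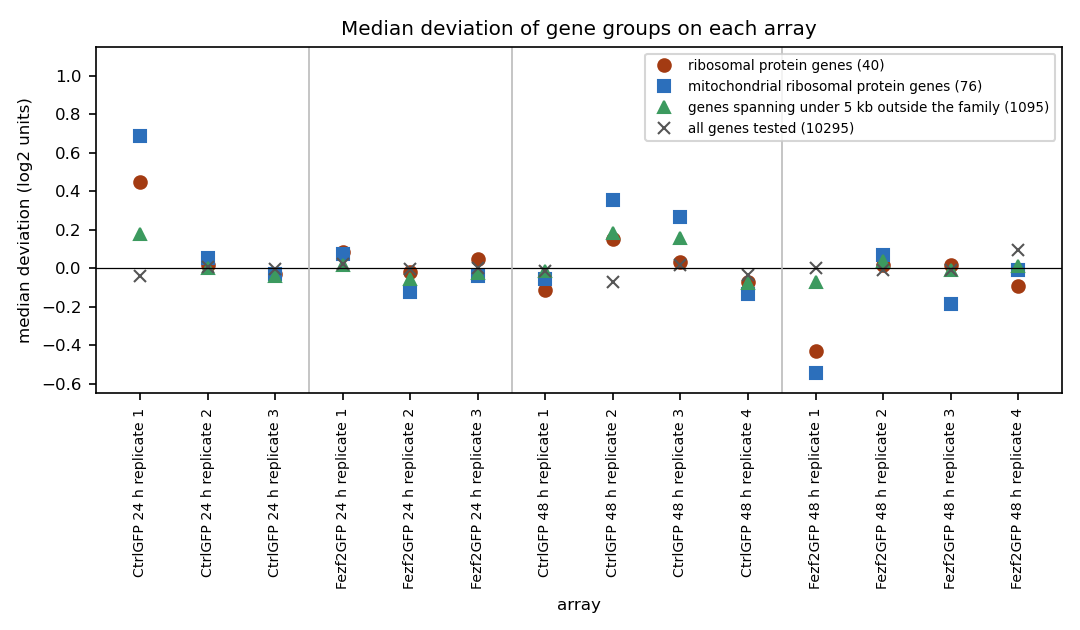
Median deviation (log2 units) from each gene's median over 14 arrays, by array, for 40 ribosomal protein genes (circles), 76 mitochondrial ribosomal protein genes (squares), 1095 other genes that span under 5 kb (triangles) and all 10295 genes tested (crosses), with grey lines between the 4 groups. Circles and squares rise together on CtrlGFP 24 h replicate 1 (0.45 and 0.69) and fall together on Fezf2GFP 48 h replicate 1 (-0.43 and -0.54).

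At 24 h, the lowest fold changes were those of Rpl27a, Rpl37, Rps25 and Rps15. Rpl27a stood at 11.33, 10.38 and 10.21 with CtrlGFP and at 9.81, 9.66 and 10.40 with Fezf2GFP. The groups overlapped, with a difference of -0.68 (SE 0.34, adjusted p = 0.620 in limma), and without CtrlGFP 24 h replicate 1 the value was -0.34. Rpl37 had -0.61 (SE 0.53) and -0.01 without that array, Rps25 -0.33 and -0.08, and Rps15 -0.30 and 0.22. The highest were Rps24 (0.24, SE 0.38), Rps6 (0.20), Rpl12 (0.08) and Rplp2 (0.06). Rps6, whose phosphorylation is a common readout of mTOR activity, stood at 11.07, 11.31 and 10.62 with CtrlGFP and at 11.06, 10.96 and 11.58 with Fezf2GFP, and the groups overlapped. In none of the 40 genes were the groups apart, higher or lower, where 12.6% of all genes were apart and higher and 7.00% apart and lower.

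At 48 h, the lowest were Rpl37, Rps19, Rpl41 and Rps25. Rpl37 stood at 11.43, 12.15, 11.26 and 11.43 with CtrlGFP and at 9.33, 11.19, 11.28 and 10.90 with Fezf2GFP. The groups overlapped, with a difference of -0.89 (SE 0.46, adjusted p = 0.398 in limma) that was -0.45 without Fezf2GFP 48 h replicate 1. Rps19 stood at 13.56, 14.26, 13.95 and 13.43 with CtrlGFP, so that its fold change of -0.81 (SE 0.61) became 0.01 without that array, and that of Rpl41, by the probe set used, went from -0.73 (SE 0.55) to -0.01. The other probe sets of Rpl41 gave -0.09, -0.56 and -0.69 at 48 h on all arrays, without being low on that array. Rps25, of the small subunit, stood at 11.14, 11.45, 11.30 and 10.53 with CtrlGFP and at 10.20, 10.34, 11.24 and 9.83 with Fezf2GFP. Here 3 of the 4 Fezf2GFP arrays lay below all CtrlGFP arrays and 1 did not, with a fold change of -0.70 (SE 0.30, unadjusted p = 0.0336, limma adjusted p = 0.265) and -0.63 without Fezf2GFP 48 h replicate 1. The highest were Rpl27a (0.12), Rpl4 (0.09), Rpl8 (0.05) and Rpl7 (0.03). Again in 0 of 40 genes were the groups apart, where 7.35% of all genes were apart and higher and 1.72% apart and lower.

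Members are grouped here by role. As 0 of the 40 genes passed in either vector comparison, none could pass within a role, and the fold changes are only described. Of the stalk proteins, Rplp0 and Rplp2 had 48 h fold changes of -0.01 and -0.44, the second being 0.09 without Fezf2GFP 48 h replicate 1. Rpl11, which with Rpl5 restrains Mdm2 and so stabilises p53 when ribosome assembly fails, had -0.07 at 24 h and -0.08 at 48 h (SE 0.17 and 0.15). Of the tunnel proteins, Rpl4 had 0.04 and 0.09. Rpl39, also of the tunnel, had a mean of 4.40, just above the dim level, so that its fold changes of -0.14 and -0.06 say little. The 9 tested genes reported in Diamond-Blackfan anaemia ran from -0.18 to 0.24 at 24 h (median -0.03) and from -0.81 to -0.08 at 48 h (median -0.19), the lowest being Rps19. Of the 4 with well-known mouse mutants, Rpl38, which affects skeletal patterning, had -0.06 and -0.34, Rps20 -0.02 and -0.05, Rpsa, also known as the laminin receptor, -0.20 and -0.01, and Rps19 -0.10 and -0.81. Rps4x had -0.03 and -0.04, and Rpl22 -0.05 and -0.20.

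Without the control arrays CtrlGFP 24 h replicate 1 and CtrlGFP 48 h replicate 2, 0 of 40 genes passed in either comparison. Of all 10295 genes, 92 then passed at 24 h and 360 at 48 h. The family's median was 0.03 at 24 h, with 30 genes above 0 and 10 below, and -0.12 at 48 h, with 9 above and 31 below. The direction of the family's 24 h median therefore turned. Of all genes, 46.6% lay below 0 at 24 h and 46.3% at 48 h. Leaving out Fezf2GFP 48 h replicate 1 as well, which was chosen after the values were seen, gave a median of 0.02 at 48 h, with 27 genes above 0 and 13 below. The intervals narrowed, and lay within 0.5 log2 units of 0 for 30 of 40 genes at 24 h and 32 of 40 at 48 h. Since the arrays left out were those that stood apart, the narrowing follows at least in part from that choice. Again 0 passed.

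Rpl12, a large-subunit protein next to the stalk, came nearest in that last comparison. It stood at 8.62, 7.21, 9.03 and 9.72 with CtrlGFP at 48 h and at 8.59, 8.29, 8.31 and 7.77 with Fezf2GFP. The low value, 7.21, was that of CtrlGFP 48 h replicate 2, and without the 3 arrays the groups were apart, with a difference of -1.001 (SE 0.26, adjusted p = 0.0712 in limma), where all arrays gave -0.40 (SE 0.40). At 24 h the lowest adjusted p without the 3 arrays was that of Rps24 (0.49, SE 0.19, limma adjusted p = 0.452).

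**Figure D4:**
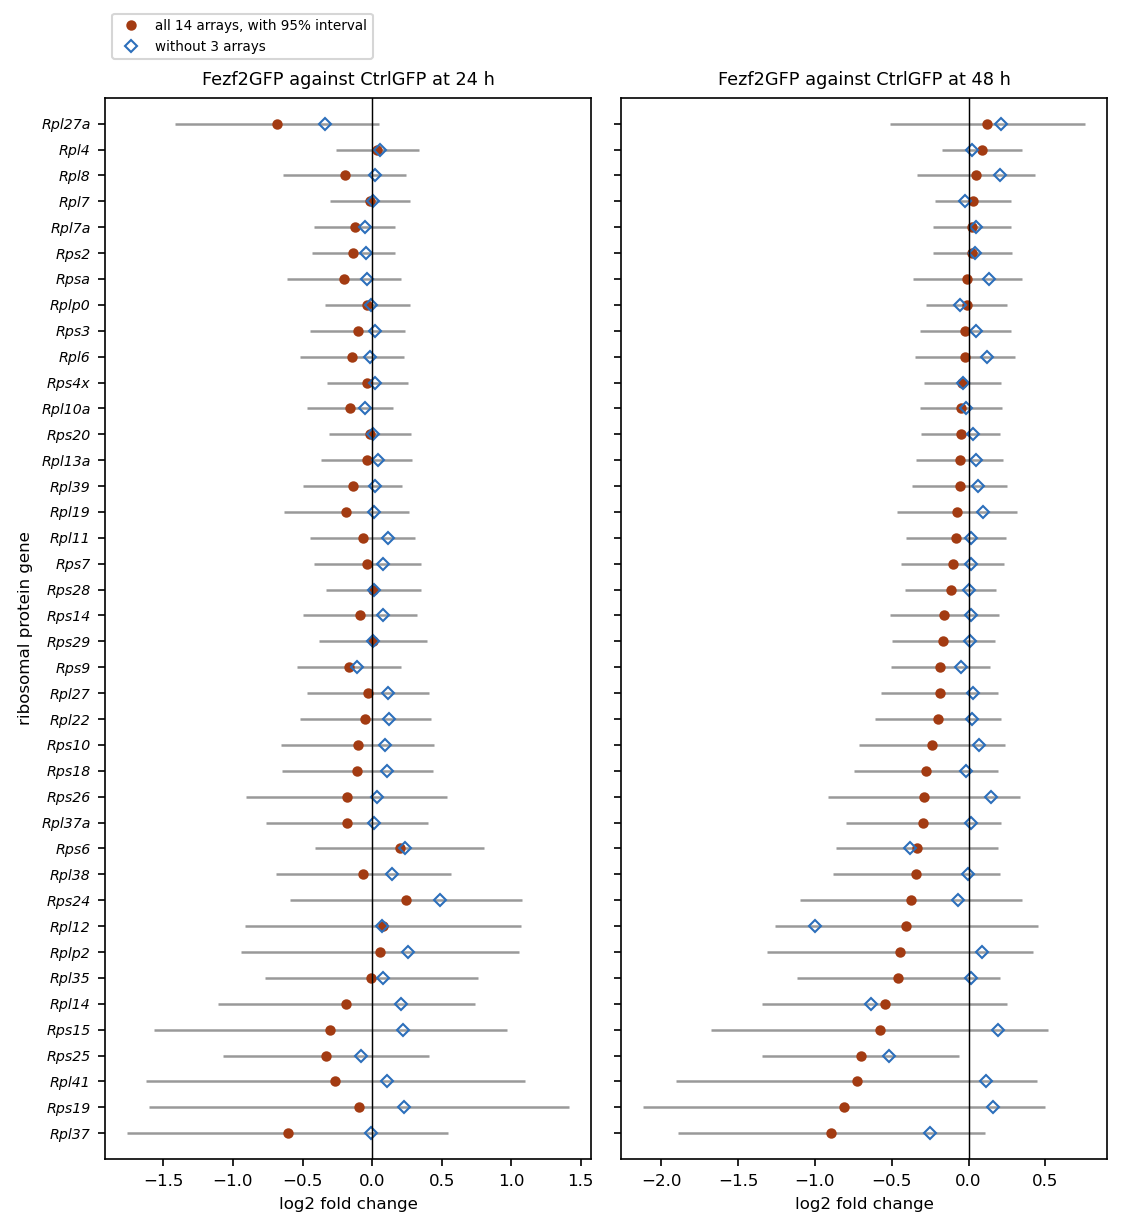
Log2 fold change of arrays labelled Fezf2GFP against CtrlGFP arrays for each of the 40 ribosomal protein genes (rows, ordered by the 48 h value) at 24 h (left) and 48 h (right). Circles with 95% confidence intervals are from all 14 arrays, and diamonds leave out CtrlGFP 24 h replicate 1, CtrlGFP 48 h replicate 2 and Fezf2GFP 48 h replicate 1. At 48 h the diamonds of Rps19, Rpl41 and Rps15 lie at 0.16, 0.12 and 0.19, and that of Rpl12 moves to -1.001.

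The difference between the 48 h and the 24 h effect was tested as an interaction. It passed for 0 of 40 genes, at an adjusted p under 0.05 (limma) that 0.0971% of all genes reached, and 0 of the 40 had an unadjusted p under 0.05. The median was -0.09. Rps19 (-0.71, SE 0.92), Rps24 (-0.62), Rps6 (-0.53) and Rplp2 (-0.50) had the lowest values, and Rpl27a (0.81, SE 0.45), Rpl8 (0.25), Rpsa (0.19) and Rps2 (0.16) the highest. Without the 3 arrays the median was -0.03.

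Time changed many genes, but none of this family passed. Between 24 h and 48 h, 12.6% of all genes passed with CtrlGFP and 12.1% with Fezf2GFP (limma adjusted p under 0.05), and 0 of 40 ribosomal protein genes did with either vector. Over the same interval 18 of 22 cell division genes passed as lower at 48 h with CtrlGFP and 16 of 22 with Fezf2GFP, and all 22 were below 0 with each vector. The family's median was -0.13 with CtrlGFP and -0.17 with Fezf2GFP, with 37 of 40 genes below 0 in each, while 52.3% and 51.2% of all genes were below 0. Without the 3 arrays the medians were -0.04 and -0.06, with 27 and 33 genes below 0.

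With CtrlGFP, 2 of 40 genes had all 48 h arrays below all 24 h arrays, where 12.8% of all genes did, and 0 had them above, where 9.93% did. Rplp0 went from 15.58, 15.56 and 15.44 to 15.40, 15.36, 15.43 and 15.41, a fold change of -0.13 (SE 0.13, limma adjusted p = 0.647). Rps20 went from 15.70, 15.64 and 15.61 to 15.54, 15.58, 15.58 and 15.54, a change of -0.09 (SE 0.13). Both shifts were no larger than the standard error of the fit. The lowest fold changes were those of Rpl27a (-0.59), Rpl14 (-0.45), Rpl8 (-0.36) and Rpsa (-0.33), each with CtrlGFP 24 h replicate 1 as its highest array of the group. Rps25 and Rps9 (0.03 each), Rpl35 (0.01) and Rpl12 (-0.01) were at the other end.

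With Fezf2GFP, 4 of 40 genes had all 48 h arrays below all 24 h arrays, where 12.9% of all genes did, and 0 had them above, where 13.3% did. They were Rps24, Rpl12, Rps18 and Rps4x. Rps18, a small-subunit head protein, went from 15.45, 15.27 and 15.35 to 14.31, 15.25, 15.11 and 15.21. Rps4x, a small-subunit protein encoded on the X chromosome, went from 15.41, 15.29 and 15.45 to 15.16, 15.28, 15.29 and 15.12. The groups nearly touched in both. Rpl12 went from 8.91, 8.69 and 8.60 to 8.59, 8.29, 8.31 and 7.77. Rps6 had the lowest p of the family, with 10.74, 10.55, 11.06 and 10.12 at 48 h and a change of -0.58 (SE 0.26, unadjusted p = 0.0449, limma adjusted p = 0.191). Rps19 (-0.93), Rpl14 (-0.81), Rpl41 (-0.71) and Rps24 (-0.64) had the lowest fold changes, and Rpl27a (0.22), Rpl7a (0.02), Rps9 (0.01) and Rpl10a (-0.03) the highest.

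The spread between arrays of a group depended on the gene. The median SD within groups was 0.23 over the family, 0.35 over all genes tested and 0.27 over 1437 other genes with a mean of at least 12. It was 0.13 for the 11 family members whose probe sets had a mean of 15 or more, 0.22 for the 18 between 14 and 15, 0.83 for the 4 between 12 and 14, and 0.45 for the 7 under 12. Rps19 (0.96), Rpl41 (0.86) and Rps15 (0.80) had the largest SDs. The probe sets of Rps29, Rpl13a and Rps28 had the highest means, 16.16, 15.98 and 15.83, where the highest value on any array was between 16.21 and 16.47, so there was little room above them. Levels of different probe sets are not on one scale and say nothing of which protein is made most.

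Genes that make and use ribosomes were counted in the same way, and between vectors their counts of 0 are near the share of all genes that passed (1.06% at 24 h and 3.13% at 48 h), so nothing is read from them. Of 50 ribosome assembly factors, 0 passed in either vector comparison. Between 24 h and 48 h with CtrlGFP, 3 passed as lower at 48 h, where 12.6% of all genes passed. They were Utp20 (-0.91, SE 0.16, limma adjusted p = 0.00207), Lyar (-0.65) and Heatr1 (-0.56). Between vectors, Rrp12 (0.61 at 24 h and 0.64 at 48 h), Polr1c (-0.61 at 24 h) and Polr1b (0.59 at 48 h), the last a subunit of RNA polymerase I, had the smallest p. With time under Fezf2GFP, 0 of 50 passed, Lyar standing at -0.46 (limma adjusted p = 0.107). The nucleolar proteins Npm1 and Ncl had fold changes of 0.15 and 0.23 at 24 h and -0.03 and 0.32 at 48 h, with Ncl lowest on CtrlGFP 48 h replicate 2 (11.72 against 13.01, 13.18 and 13.32). Of 38 translation factors 1 passed with time under Fezf2GFP, as lower at 48 h, where 12.1% of all genes passed. It was Eif4ebp1, the mTOR target that blocks the cap-binding factor (-2.06, SE 0.53, limma adjusted p = 0.0235), which had -1.503 with CtrlGFP (limma adjusted p = 0.0890). Eef1a1 and Eef2, the main elongation factors, had 48 h fold changes of 0.09 and 0.32 and did not pass. The smallest p between vectors were those of Eef2k, the kinase that inhibits Eef2 (0.67 at 24 h and 0.54 at 48 h), Eif6 (-0.46 at 24 h) and Eif4b (0.46 at 48 h, limma adjusted p = 0.223).

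The 19 other tested transcripts known to carry an oligopyrimidine tract had 0 passed in each comparison, with medians of 0.03 at 24 h and -0.03 at 48 h, and Vim nearest (-0.50 with time under CtrlGFP, limma adjusted p = 0.0519). Among 16 regulators of ribosome production, 0 passed between vectors. Mtor (0.42, limma adjusted p = 0.119) and Rptor (0.76, limma adjusted p = 0.139) were nearest at 48 h. Mycn, a driver of ribosome production in neural progenitors, stood at 14.46, 15.19 and 15.14 with CtrlGFP at 24 h and at 14.66, 14.28 and 14.40 with Fezf2GFP (-0.48, SE 0.21, limma adjusted p = 0.515), and Myc at 6.11, 7.18 and 6.92 and at 7.18, 6.83 and 7.08. The groups overlapped in both. Of the 76 mitochondrial ribosomal protein genes, 0 passed in any of the 5 comparisons, with medians of -0.27 at 24 h and -0.26 at 48 h, and Mrpl46 (-0.50) and Mrpl13 (-0.49) had the smallest p at 24 h and at 48 h.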

How the data were processed

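The deposited values are log2 signals from Affymetrix mouse arrays, made by the authors with GCRMA per the submitters' processing notes (version not given in the sources used here). The labels' protocols describe 2 rounds of RNA amplification by in vitro transcription. Values were used as deposited, for 45037 probe sets. Of these, 34945 had 1 symbol in the platform annotation, 932 several and 9160 none. Precision is limited by how many arrays there are.

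Each gene was represented by the brightest of its probe sets, by mean over 14 arrays, and tested if above 4 on at least 3 arrays. In limma 3.58.1 (R 4.3.3), 1 mean per group was fitted over all 14 arrays, and 5 contrasts were tested with Benjamini-Hochberg adjustment over 10295 genes. The script was tested on simulated data. The genes named in the text were those of a written rule: members of known role, the largest and smallest fold changes, the highest and lowest means, the widest spreads and probe set gaps, and the smallest p in each other list. Rps26, Rps10, Rps14, Rps18, Rps2, Hbb-y, Hba-x, Hbb-bh1, Hba-a1, Sox2, Eomes, Alas2, Gad1, Rpl7l1 and Rps3a1 were named after their values were seen. Members and lists were chosen with earlier results of these data known. Promoter windows come from a RefSeq table. Alternatives covered filters, scaling, probe sets, weights, a trend with gene span, a replicate block and left-out arrays, among others. Where the text says "without" an array, the fit dropped it.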

Additional observations from a re-analysis of the deposited data

Results flagged for a closer look

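In the groups of 4 arrays, 82 sets of values (40 genes and their median, in both 48 h groups) were searched for an array far from the rest by Dixon's test, of which chance marks about 1 in 20, and 10 were marked. In 8 of them Fezf2GFP 48 h replicate 1 was the lowest, with Rps19 at 10.54, Rpl41 at 10.86, Rps24 at 12.73, Rplp2 at 13.02, Rps26 at 13.46, Rps14 at 14.06, Rps18 at 14.31 and Rps10 at 14.47. The genes share that array, so the 8 are not independent. The other marks were Rplp0, lowest on Fezf2GFP 48 h replicate 3 at 15.12, and Rps9, highest on Fezf2GFP 48 h replicate 2 at 13.57. In the CtrlGFP group at 48 h, 0 were marked. The groups of 3 arrays at 24 h were not searched. The mark of Rpl41 holds for the probe set used, and its other 3 were not low on that array (deviations of -0.17, -0.04 and -0.05).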

How the results depend on the processing

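Each comparison was refitted under 29 alternatives (28 for the interaction), and 0 of the ribosomal protein genes passed in any of them except with array weights, whose estimation did not fully converge. With array weights 2 of 40 genes passed at 24 h, where 2030 of all 10295 genes did. They were Rpl27a (-0.54, limma adjusted p = 0.0393) and Rps24 (0.52, limma adjusted p = 0.0467). With time under CtrlGFP 1 of 40 passed, Rpsa (-0.35, limma adjusted p = 0.0328), where 3077 of all genes did. The cause was not tested.

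The family's median ranged from -0.19 to 0.03 at 24 h (below 0 in 26 of 29), from -0.28 to 0.02 at 48 h (28 of 29), from -0.28 to 0.05 for the interaction (26 of 28), from -0.21 to -0.03 with time under CtrlGFP and from -0.30 to -0.06 under Fezf2GFP (29 of 29 each). All these lay within 1 SD between arrays of the main value (0.21). That SD includes the arrays that stood apart and is larger than each main median, so a median can change sign within it. Leaving out 1 array at a time, 0 genes passed throughout. Scaling moved the balance of signs at 24 h: 22 of 40 genes were below 0 after median centring, when the median of all genes rose to 0.129, and 37 of 40 after cyclic loess, when it was 0.0076.

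Of 19 pairs of arrays with the same replicate number, 5 had deviations that correlated above 0.1 (range -0.40 to 0.32). Between vectors at the same time the correlations were 0.32, 0.22 and -0.006 at 24 h. At 48 h they were -0.06, 0.29, 0.02 and 0.27. Whether the numbers pair the samples cannot be decided from these values. With the replicate number as a block, 0 ribosomal protein genes passed in each comparison, and of all genes 81 passed at 24 h, 232 at 48 h, 0 for the interaction, 1026 with time under CtrlGFP and 1055 under Fezf2GFP, against 109, 322, 10, 1294 and 1241 without it.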
